A study of Mus musculus with 2 samples.

Results

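Probes for 10 genes of fibroblast growth factor (FGF) signaling were followed on the arrays: the receptor genes Fgfr1, Fgfr2 and Fgfr3, the inhibitors Spry1, Spry2, Spry4 and Spred1, the phosphatase gene Dusp6 and the transcription factor genes Etv4 and Etv5. They were found by gene name, as FGF receptors and genes that FGF and Erk1/2 signaling is known to switch on. All 10 were found, with 22 of the 41174 gene probes and 10 of the 27827 gene names on the array. Of these 22 probes, 19 probes of 9 genes were well above background and tested, whereas both Spry4 probes and 1 of 3 Fgfr3 probes were not above background in any RNA.

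RNA came from prostaspheres, in which prostate epithelial cells grow as spheres in Matrigel, and was hybridized to 2 arrays on 1 slide with 2 RNAs each. The genotype array compared wild-type cells given tamoxifen (TAM), in Cy5, with ER-Sox9flox/flox cells given TAM, in Cy3. The treatment array compared ER-Sox9flox/flox cells given vehicle, in Cy5, with ER-Sox9flox/flox cells given TAM, in Cy3. These cells have floxed Sox9 alleles and Cre fused to an estrogen receptor domain, expressed from the Rosa26 locus, so that TAM deletes Sox9. All 4 RNAs were of C57/Bl6J background and grew for 6 days with dihydrotestosterone before 6 days of TAM (5 µM) or vehicle. The labels name urogenital sinus (UGS) of 16 dpc embryos as the source, but in the methods adult prostate is used for the prostasphere assay. The 3 RNAs exposed to TAM include the wild type, and the treatment array alone compares cells with and without TAM. The genotype label is Sox9 null for both RNAs of the treatment array, so the treatment label tells them apart there. In the source names, Cy5 samples are marked SOX9 and Cy3 samples Ctrl, and the titles, treatments and genotypes were followed instead. If SOX9 there meant the deleted gene, every sign given would turn. Of 3 Sox9 probes, 2 read higher in Cy5 than in Cy3 on both arrays, the direction given by the titles, and the third read lower. Each of the 4 RNAs is a separate culture measured once, and labels do not say how many animals it pools.

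Every ratio below is the log2 of the Sox9-expressing signal over that of the Sox9-deleted RNA, where a positive value means a higher level with Sox9. The 2 arrays serve as replicates (n = 2) of that contrast, although they differ in which control was used. The limma p-values and intervals combine the spread of a probe between these 2 arrays with a spread shared by all tested probes. Where the arrays agree closely, they rest mostly on the shared spread. They do not measure the spread between other cultures. RNA of Sox9-expressing cells carried Cy5 on each array, so dye and Sox9 state cannot be told apart. Of 3 Sox9 probes, 2 read higher with Sox9 on both arrays (log2 ratios 2.69 and 2.37 for the brightest), and the third had a mean of -1.11, with the wild-type RNA not well above background. Even the brightest Sox9 probe had an adjusted p of 0.063 in limma.

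FGFs bind receptor tyrosine kinases together with heparan sulfate on the cell surface, and the receptor passes the signal through Frs2, Grb2 and Ras to the kinases Erk1/2. Erk1/2 in turn induce their own restraints: Sprouty and Spred proteins, which dampen the step from Ras to Raf, and Dusp6, which removes phosphate from Erk1/2. The ETS factors Etv4 and Etv5 are commonly used as readouts of the same signal. In the developing prostate, mesenchymal ligands such as Fgf7 and Fgf10 act on Fgfr2 of the epithelium. The study followed androgen and FGF signaling upstream of Sox9 in the UGS. In UGS epithelium it reported that FGF2 raised Sox9, and that FGF2 activated Erk1/2 where FGF7 and FGF10 did not. The arrays ask the opposite question, which genes differ when Sox9 is lost.

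The oligos of the genes that differed most are shown first, because probes of 1 gene gave different values. They are 60 bases long, coordinates are those of the array annotation (mouse build mm9), and each is printed 5′ to 3′ in the sense of the transcript. Of the 4 Fgfr1 probes, the pair nearest the 3′ end of the coding sequence shares a stretch of 39 bases, marked in capitals, and so reads nearly the same target (chr8:26684063-26684122 and chr8:26684042-26684101, plus strand).
Fgfr1 A_52_P668810: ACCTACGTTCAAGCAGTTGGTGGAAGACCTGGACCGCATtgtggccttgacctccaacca
Fgfr1 A_51_P109469: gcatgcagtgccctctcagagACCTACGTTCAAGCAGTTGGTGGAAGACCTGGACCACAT
Within that stretch 38 bases are identical and 1 differs, G36A, counted from 1 at the 5′ end of A_52_P668810, with the base of A_52_P668810 first. The other 2 Fgfr1 probes lie farther 5′ and are not printed.
The 3 Fgfr2 probes lie on the minus strand of chromosome 7. The first is in the part encoding the extracellular domain (chr7:137385966-137386025), and only the first 30 bases are given for the others, near the 3′ end of the transcript (chr7:137307455-137307514 and chr7:137306712-137306771).
Fgfr2 A_52_P158800: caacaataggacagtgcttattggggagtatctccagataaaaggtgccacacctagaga
Fgfr2 A_51_P432403: ctgcctcagtatccacacataaacggcagt
Fgfr2 A_52_P363110: gaggactagttaatctattgcttggactta
For Spry2 (chr14:106291385-106291444, minus strand), Etv4 (chr11:101631443-101631502, minus strand) and Dusp6 (chr10:98729985-98730044, plus strand) the first 30 bases of the brightest probe are given.
Spry2 A_52_P368532: caggaaacctttattgtaagtctctgattt
Etv4 A_51_P230382: tggaggcaggccaaatctaaaggcagtagc
Dusp6 A_51_P502614: catttggtggatgcaacaggttgagaggaa
The files do not say which splice forms a probe reads, so forms of Fgfr1 and Fgfr2 were not separated.

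With each gene read from its brightest probe, 4 of the 9 tested genes (Fgfr2, Fgfr3, Spry2 and Spred1) read higher with Sox9 on both arrays, and 3 (Fgfr1, Etv4 and Etv5) were lower on both, while Spry1 and Dusp6 went opposite ways. Among all 22731 tested probes, 34.5% were higher on both arrays and 32.6% lower on both, so these shares of the 9 genes are near the background. Read from the brightest probe, the sizes set some members apart from most probes: the mean log2 ratio of Fgfr2 was exceeded by 1.41% of tested probes and that of Spry2 by 3.92%, and 2.09% lay below Fgfr1 and 2.56% below Etv4. Most other probes of these genes stood out less. The other Fgfr2 probes were exceeded by 5.96% and 23.4% of tested probes, and the other Spry2 probe by 15.9%. Below the other Fgfr1 probes lay 1.78%, 9.92% and 14.7%. By the limma test of the mean over both arrays, 5 of the 9 genes had an unadjusted p under 0.05 at their brightest probe. Counted by probe, 8 of the 19 tested member probes did, against 17.5% of all tested probes. At an adjusted p under 0.05 the count was 0 of 9 genes in limma, with 0.00880% of all tested probes called (2 of 22731), and the lowest adjusted p of a member was 0.109, for Fgfr2. No member reached a 2-fold difference on each array, as 0.418% of tested probes did. The median log2 ratio of the 9 genes was 0.096 on the genotype array and 0.086 on the treatment array, beside -0.0017 and 0.011 over all tested probes.

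**Figure D1:**
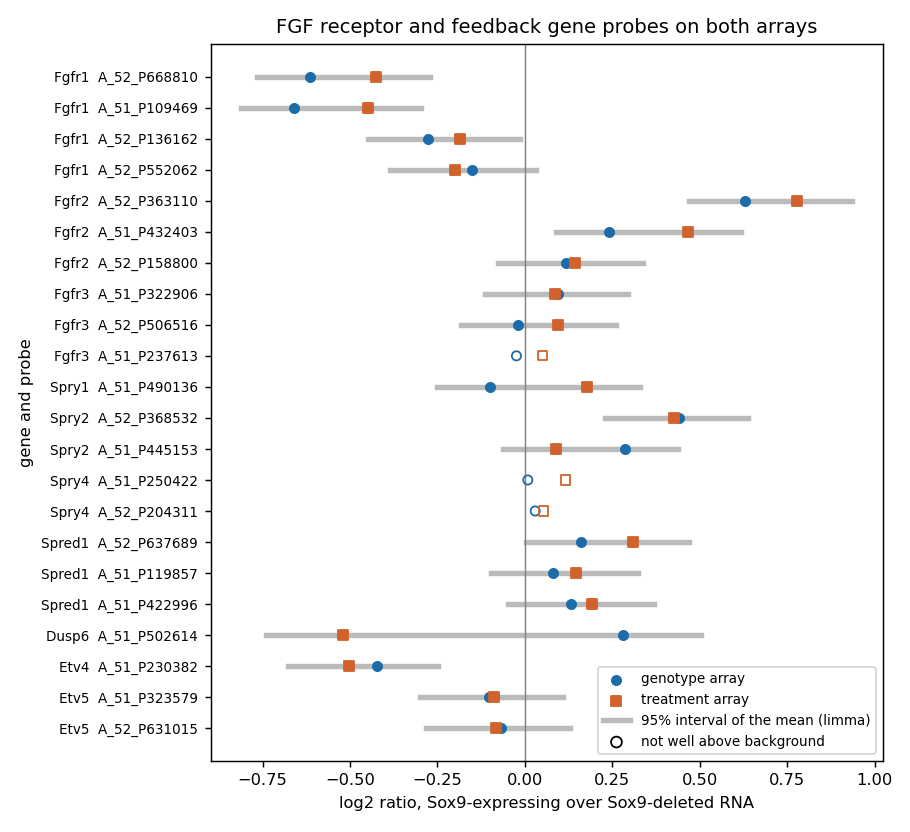
The log2 ratio of Sox9-expressing over Sox9-deleted RNA is plotted on the horizontal axis for each of the 22 probes, 1 row per probe, with a circle for the genotype array, a square for the treatment array and a gray bar for the limma 95% interval of their mean; open symbols mark probes not well above background. The 4 Fgfr1 probes and the Etv4 probe lie below 0 on both arrays, the 3 Fgfr2 probes above it, and the Dusp6 symbols fall on opposite sides, at 0.28 and -0.52.

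Levels are given below as normalized intensities, in arbitrary units, after scaling between arrays. They hold a constant added before the log (50 units), so a gene at background still reads near 90, and levels of different probes are not comparable. In bulk RNA, fewer cells of a type and less RNA per cell cannot be told apart.

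The receptor genes went in different directions. Fgfr1, which is made in both epithelium and mesenchyme of many organs, had a normalized intensity of 576 in wild-type TAM RNA and 774 in vehicle-treated floxed RNA, against 881 and 1039 in the Sox9-deleted RNA of the genotype and treatment arrays (A_52_P668810). Both Sox9-expressing RNAs were thus below both deleted RNAs, and the groups did not overlap. The log2 ratios were -0.61 and -0.42, with a mean of -0.52 ± 0.13 (SD, n = 2; 95% interval -0.77 to -0.27), which is a level 1.43-fold higher in deleted RNA. The limma p was 0.0048 and the adjusted p 0.146. The partly overlapping probe A_51_P109469, with 9 and 10 spots on the arrays, gave -0.66 and -0.45, and its spots on an array varied with an SD of only 0.036 and 0.055. These replicate spots show the spread of the measurement and not that between cultures.

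The 2 remaining Fgfr1 probes had the same sign and smaller values. The probe A_52_P136162 gave -0.28 and -0.18, a mean of -0.23 ± 0.07 (adjusted p = 0.27 in limma), and the 5′ probe A_52_P552062 gave -0.15 and -0.20, a mean of -0.18 ± 0.03 (adjusted p = 0.33 in limma). All 4 Fgfr1 probes were therefore lower with Sox9 on both arrays in the main processing. With median centring in place of loess, all 4 read above 0 on the treatment array (0.07 to 0.30). The median of all tested probes on that array was then 0.38. Under that centring the means of A_52_P136162 and A_52_P552062 were 0.03 and 0.05. In the main processing, the pair at the 3′ end of the coding sequence differed from the others by more than the SD of any of them. The RNA was amplified from an oligo dT primer, and whether distance from the 3′ end bears on this difference was not tested.

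Fgfr2, the receptor through which mesenchymal Fgf7 and Fgf10 reach epithelial cells, had the largest mean ratio of the members. Probe A_52_P363110 read 445 in wild-type TAM RNA and 441 in vehicle-treated floxed RNA, against 288 and 257 in the deleted RNAs. The Sox9-expressing RNAs were nearly equal and both stood above the deleted RNAs. The log2 ratios were 0.63 and 0.78, with a mean of 0.70 ± 0.11 (95% interval 0.47 to 0.94), a 1.63-fold higher level with Sox9, at a limma p of 0.0013 and an adjusted p of 0.109. The second probe, A_51_P432403, with 10 and 8 spots, gave 0.24 and 0.47 and spot SDs of 0.048 and 0.094. The extracellular-domain probe A_52_P158800 gave 0.12 and 0.14, with an interval from -0.08 to 0.34 that includes 0.

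The 3 Fgfr2 probes differ in brightness, and the sizes of their ratios depend on the processing. Mean intensity above local background in the wild-type RNA was 504 units for A_52_P363110, 120 for A_51_P432403 and 52.3 for A_52_P158800, and an added constant of 50 pulls the ratio of a dim probe toward 0. With a constant of 10 the means over both arrays were 0.79, 0.50 and 0.24 in that order. Without background subtraction they were 0.81, 0.51 and 0.34. Both settings still leave a constant or background in the signal, so they cannot show whether the probes would differ without it. In the scanner software's processed signals the 3 probes read 0.91, 0.84 and 0.95 as means, where the main processing gave 0.70, 0.35 and 0.13. In those signals the Fgfr1 probes read -0.64 and -0.67 for the overlapping pair, -0.34 for A_52_P136162 and -0.26 for the 5′ probe. In the authors' processed values the Fgfr2 probes read 0.82, 0.52 and 0.33, and the cause of the spread was not tested. All 3 were above 0 under every scaling tried.

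**Figure D2:**
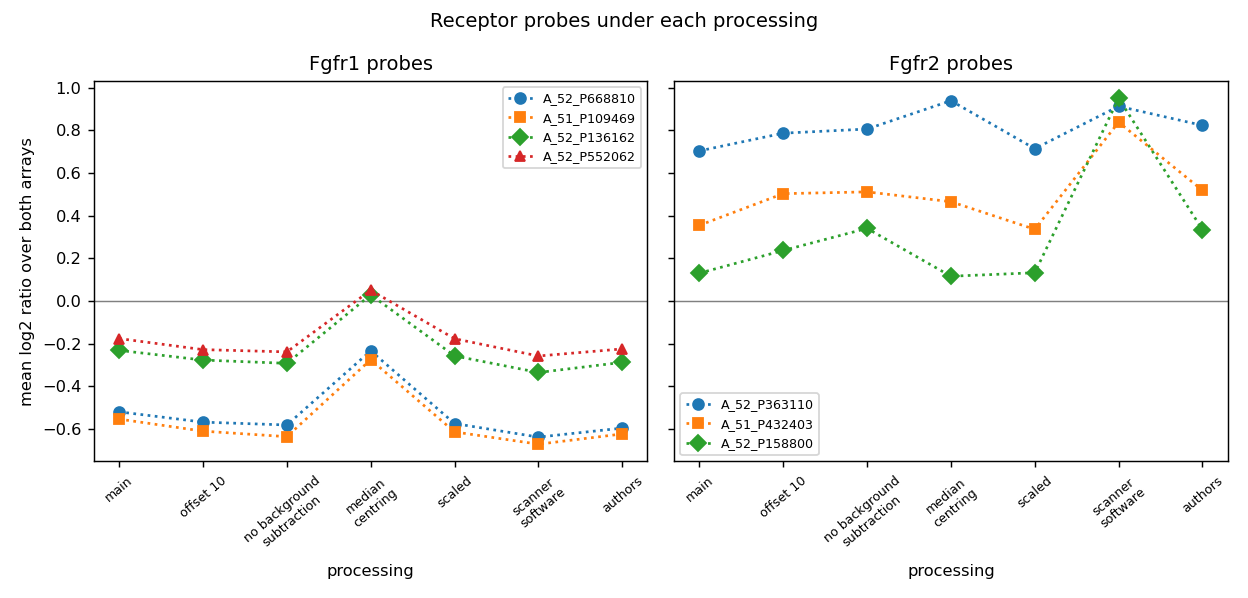
Mean log2 ratio over both arrays is plotted for each of the 4 Fgfr1 probes (left) and 3 Fgfr2 probes (right) under 7 processings on the horizontal axis, with dotted lines only to guide the eye. The Fgfr2 probes are spread from 0.13 to 0.70 in the main processing and lie between 0.84 and 0.95 with the scanner software's signals, while the Fgfr1 probes keep 2 separate levels.

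Between the brightest probes of the receptor genes, the log2 ratio of Fgfr2 exceeded that of Fgfr1 by 1.24 on the genotype array and 1.20 on the treatment array. A shift common to all probes of an array cancels in this difference, which was chosen after its values were seen and is given with no test. Fgfr3, a receptor of stratified epithelia and cartilage among other tissues, read 412 and 407 with Sox9 and 386 and 383 without. Its log2 ratios of 0.10 and 0.09 had a mean of 0.09 ± 0.01 and a 95% interval from -0.12 to 0.30. A second Fgfr3 probe, A_52_P506516, gave -0.02 and 0.10, so that direction was not the same across probes.

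Among the Sprouty and Spred genes, which restrain receptor tyrosine kinase signaling, Spry2 had the largest ratio. Probe A_52_P368532 read 680 and 705 in the Sox9-expressing RNAs and 501 and 524 in the deleted RNAs, and the groups did not overlap. The log2 ratios of 0.44 and 0.43 had a mean of 0.43 ± 0.01 (95% interval 0.23 to 0.64), a 1.35-fold higher level, with a limma p of 0.0047 and an adjusted p of 0.146. The dimmer Spry2 probe A_51_P445153 (chr14:106291901-106291960, minus strand) gave 0.29 and 0.09, and its 4 levels overlapped. That probe read 0.62 on the genotype array and -0.0056 on the treatment array in the authors' processed values, so on the treatment array the direction of Spry2 rests on the brighter probe.

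Spred1 had 3 probes, all higher with Sox9 on both arrays. The brightest, A_52_P637689, read 677 and 727 with Sox9 and 605 and 587 without. Its log2 ratios were 0.16 and 0.31, a mean of 0.24 ± 0.11 (adjusted p = 0.28 in limma), and the other probes had means of 0.11 and 0.16. The Spred1 probes printed below lie on the plus strand of chromosome 2 (chr2:116997721-116997780 and chr2:117003056-117003115) and differ in target and in brightness, with values inside each other's intervals.
Spred1 A_52_P637689: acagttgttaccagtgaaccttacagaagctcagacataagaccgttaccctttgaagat
Spred1 A_51_P422996: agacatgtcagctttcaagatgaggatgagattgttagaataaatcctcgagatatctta

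Spry1 gave log2 ratios of -0.10 and 0.18, with normalized intensities of 416 and 584 in the Sox9-expressing RNAs and 446 and 516 in the deleted RNAs. The highest and the lowest of the 4 levels were both Sox9-expressing RNAs, so Spry1 differed more between those cultures than between Sox9 states. Spry4 was not well above background in any of the 4 RNAs on either of its probes, and no ratio is read from them.

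Dusp6, the phosphatase that acts on Erk1/2, was far above background in all RNAs and had the largest disagreement between arrays among the members. It read 7735 in wild-type TAM RNA, 4725 in vehicle-treated floxed RNA, and 6362 and 6774 in the deleted RNAs. As with Spry1, the highest and the lowest level were both from Sox9-expressing cells. The log2 ratios were 0.28 and -0.52, with a mean of -0.12 ± 0.57 and a 95% interval from -0.74 to 0.50. The difference between the arrays has no test, because each array is 1 measurement.

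Etv4 and Etv5, ETS factors of the Pea3 group, were both lower with Sox9 on both arrays, by different amounts. Etv4 read 416 and 383 with Sox9 and 557 and 543 without, which separates the groups. The log2 ratios of -0.42 and -0.50 had a mean of -0.46 ± 0.06 (95% interval -0.68 to -0.25), a 1.38-fold higher level in deleted RNA, with a limma p of 0.0043 and an adjusted p of 0.142. Etv5 read 145 and 145 with Sox9 and 156 and 155 without, a dim signal that was well above background in all 4 RNAs, and its log2 ratios were -0.10 and -0.09 (95% interval -0.30 to 0.11). A second Etv5 probe gave -0.07 and -0.08. The interval of Etv5 lies above the mean of Etv4, and the 2 genes were not tested against each other.

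The Erk1/2 feedback and output genes of the list thus had no common direction: Spry2 and Spred1 were higher with Sox9 on both arrays, Etv4 was lower, and Dusp6 and Spry1 were mixed. Spry2 exceeded Etv4 by 0.86 on the genotype array and 0.93 on the treatment array in log2 ratio, a difference that was also chosen after the values were seen.

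**Figure D3:**
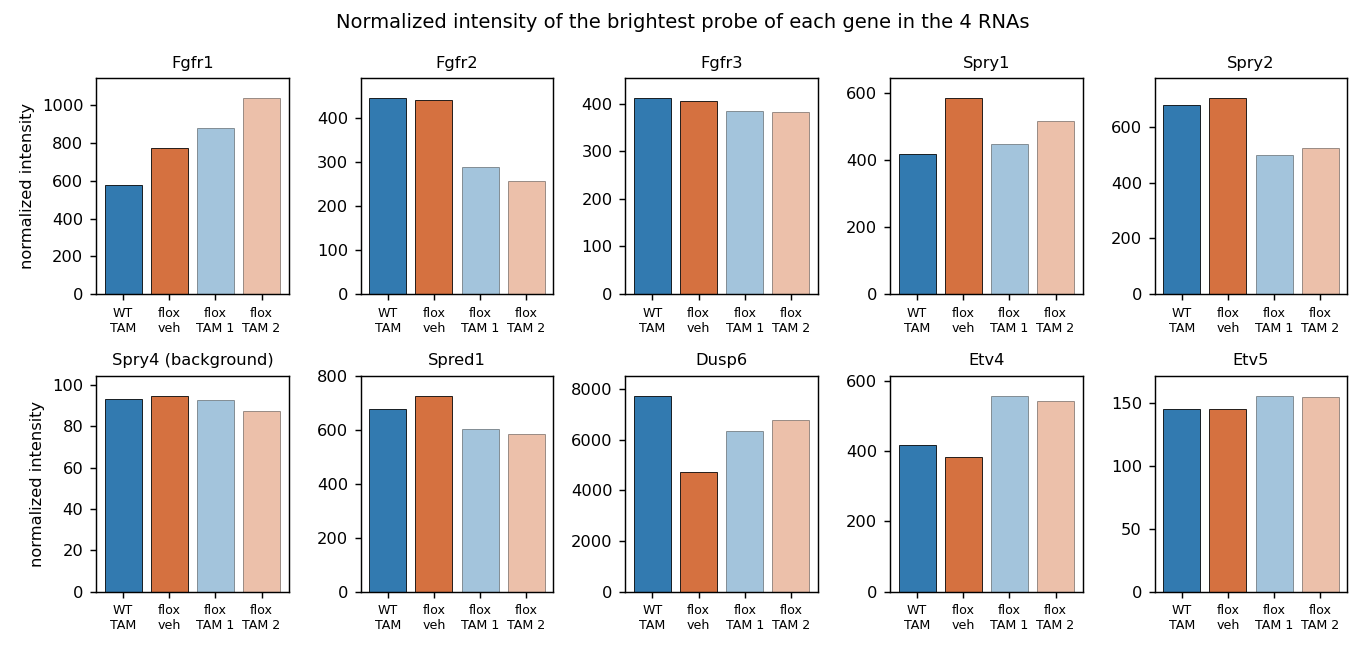
Normalized intensity (arbitrary units, axes from 0) of the brightest probe of each of the 10 genes in the 4 RNAs, 1 culture each: wild type with TAM, floxed with vehicle, and floxed with TAM on the genotype array (TAM 1) and the treatment array (TAM 2). Sox9-expressing RNAs (dark) stand above both deleted RNAs (light) for Fgfr2, Spry2 and Spred1 and below them for Fgfr1 and Etv4, while Dusp6 runs from 4725 to 7735 within the Sox9-expressing RNAs.

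Of the 19 tested member probes, 8 had both Sox9-expressing levels above both deleted levels, as 26.9% of all tested probes did, and 7 had them below, as 25.0% did. This count leans on scaling between the arrays. Without it, which was tried after seeing the data, 4 member probes of Fgfr2, Spry2 and Spred1 stood above, beside 13.0% of all tested probes, and 5 of Fgfr1 and Etv4 below, beside 11.6%.

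Other genes of the pathway, from lists of 100 genes drawn up by known role, with earlier results of these data known, were read in the same way. In all 98 were found and 77 tested, and on both arrays 21 of these were higher with Sox9 and 28 lower, while 28 went opposite ways. None had an adjusted p under 0.05 in limma, and 17 had an unadjusted p under 0.05, beside 17.5% of all tested probes. Of all tested probes, 34.5% were higher on both arrays, 32.6% lower on both and 32.9% opposite. The same shares stand beside the counts in each list below. Their medians, -0.037 for ligands, 0.074 for other receptors and coreceptors, 0.002 for adaptors and kinases, -0.060 for other feedback genes, -0.15 for transcription targets and 0.040 for heparan sulfate enzymes (mean log2 ratio over both arrays), lay beside 0.0068 over all tested probes.

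Of 21 ligand genes 9 were tested, and 10 were not well above background in any RNA. Fgf7 gave -0.29 and -0.01 and Fgf2 gave -0.30 and 0.04 on the genotype and treatment arrays, and Fgf10 gave -0.08 and 0.33. None of the 9 tested ligands had an unadjusted p under 0.05, and Fgf13, with the highest mean, gave 0.30 and -0.02. Of the 14 tested receptors and coreceptors, Flrt2 was the only pathway gene past 2-fold on each array, with log2 ratios of 1.02 and 1.27 (adjusted p = 0.092 in limma). Flrt1 gave 0.89 and 0.62. Both encode leucine-rich transmembrane proteins of a family that can bind FGF receptors. At the low end were Nrp1, a neuropilin (-0.47 and -0.22), and the syndecan gene Sdc4 (-0.22 and -0.21).

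Of the 22 tested adaptors and kinases, 8 read higher with Sox9 on both arrays and 9 lower, and most were near 0. The docking protein genes Gab1 (0.41 and 0.50) and Frs2 (0.17 and 0.30) had the highest means, and Mapk3, which encodes Erk1 (-0.29 and -0.11), and Rps6ka3 (-0.20 and -0.16) the lowest. Among 11 other feedback genes, Dusp4, a nuclear phosphatase of Erk1/2, gave -0.68 and -0.97, and Errfi1, an inhibitor of the EGF receptor, gave -0.71 and -0.40. Their levels were thus lower with Sox9 on both arrays, like Etv4 and unlike Spry2. The ETS repressor gene Erf gave 0.41 and 0.22 and Spred2 gave 0.03 and 0.14.

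Among 10 tested transcription targets of the pathway, 5 were lower with Sox9 on both arrays and 1 was higher. Phlda1 gave -0.72 and -0.63 and Ier3 gave -0.57 and -0.78, both early-response genes of growth factors, whereas the early-response gene Egr1 gave 0.70 and 0.14 and Fos 0.00 and 0.15. Heparan sulfate enzymes showed no common direction: Hs6st2 gave 0.03 and 0.80, Hs6st1 0.65 and -0.06, Hs3st1 -0.39 and -0.19, and Sulf2 -0.09 and -0.03.

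The cells were checked against markers. The 8 epithelial markers were all well above background in all 4 RNAs. The basal markers Krt5 (2.13 and 1.91), Krt14 (2.07 and 1.86) and Trp63 (1.65 and 1.55) were more than 2-fold higher with Sox9 on each array, and Epcam (0.46 and 0.37) was higher by less. Krt18 (-0.28 and -1.01), Cldn4 (-0.84 and -1.04) and Cdh1 (-0.31 and -0.32) read lower on both arrays, and Krt8, the partner of Krt18, gave 0.01 and -0.74. Of the prostate markers, Hoxb13 gave 0.37 and 0.33, and Foxa1 was not above background in any RNA. Fgfr2 and Spry2 were thus higher in the RNAs with more basal keratin, whose part in these ratios was not tested.

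Stromal markers went opposite ways on the arrays. Of 10 such genes, 9 were lower on the genotype array and higher on the treatment array, for example Col3a1 with -1.62 and 1.13, and the remaining gene, Dcn, gave -0.77 and -0.14. Their summed normalized intensity was 37393 in wild-type TAM RNA, 95807 in vehicle-treated floxed RNA, and 63626 and 57744 in the deleted RNAs. All 6 tested skeletal muscle markers had the same pattern, with sums of 1183, 7691, 2568 and 1906 in that order. Of 8 immune and endothelial markers 3 were tested, and the sum of normalized intensities over all 8 was 1109 and 1110 in the Sox9-expressing RNAs and 1317 and 1373 in the deleted RNAs. That sum includes the 5 genes not above background, and most of its difference came from Cd68 alone. The macrophage marker Cd68, which other cells also express, read 333 and 318 with Sox9 and 536 and 545 without (log2 ratios -0.69 and -0.77, adjusted p = 0.101 in limma), the same direction as Fgfr1 and Etv4. The endothelial genes Cdh5 (-0.12 and -0.16) and Kdr (0.08 and -0.10) were nearer 0, and the other 5, Ptprc and Pecam1 among them, were not above background. The part of these cells in the ratios was not tested. Spry1 likewise had its highest level in vehicle-treated and its lowest in wild-type RNA, and Dusp6 had its highest in wild-type and its lowest in vehicle-treated RNA. The part of stromal cells in these ratios was not tested.

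**Figure D4:**
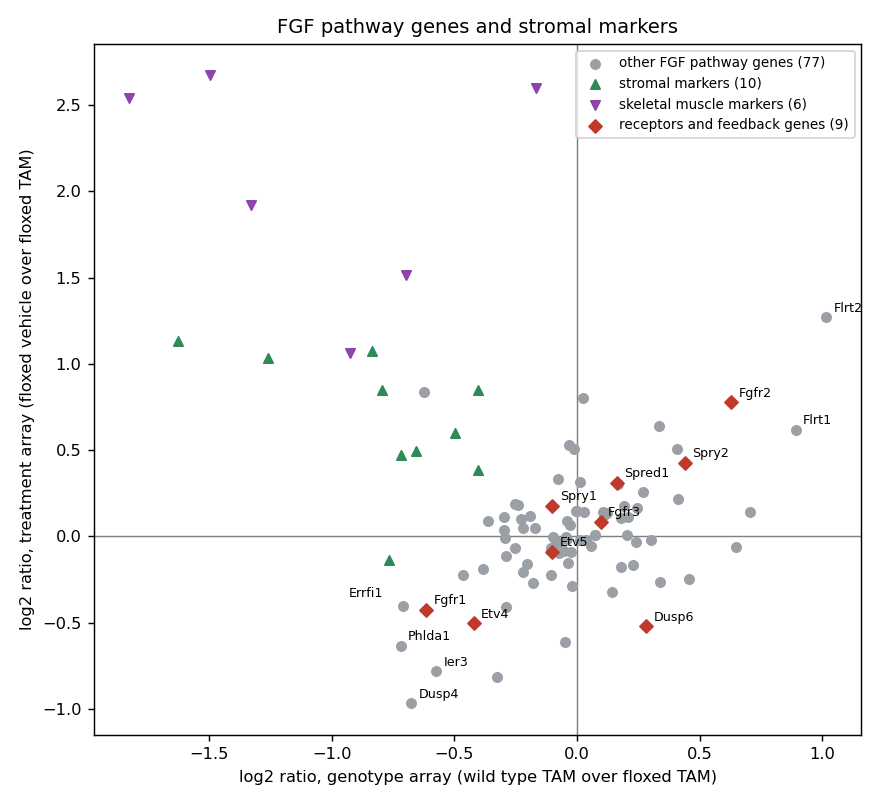
Log2 ratio on the genotype array (horizontal) against that on the treatment array (vertical) for the 9 tested receptor and feedback genes, 77 other FGF pathway genes, 10 stromal and 6 skeletal muscle markers, 1 point per gene from its brightest probe. Fgfr2 and Spry2 lie at the upper right and Fgfr1 and Etv4 at the lower left, whereas 9 of 10 stromal and all 6 muscle markers lie at the upper left.

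The directions were set against other ways to process, filter or combine the arrays. Over 11 alternatives, the mean log2 ratio kept its sign for Fgfr1 (-0.64 to -0.23), Fgfr2 (0.40 to 0.94), Fgfr3 (0.04 to 0.34), Spry2 (0.31 to 0.70), Spred1 (0.16 to 0.51) and Etv4 (-0.58 to -0.21), and changed it under some for Spry1, Dusp6 and Etv5. Not all alternatives could turn a sign. Other filters on dim probes left these values unchanged, and 1 array alone repeats its own ratio, with a sign already shared by both arrays for most genes. Averaging all probes of a gene changed nothing for genes with a single probe, such as Etv4. Median centring in place of loess moved the median of all tested probes on the treatment array to 0.38, and there Fgfr1 read 0.11, above 0, and Etv4 -0.02. Relative to that median, Fgfr1 read -0.27 and Etv4 -0.40 on the treatment array, and Fgfr2 0.84. Under that centring Fgfr2 passed an adjusted p of 0.05 in limma (0.030), which it did under no other alternative tested.

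**Figure D5:**
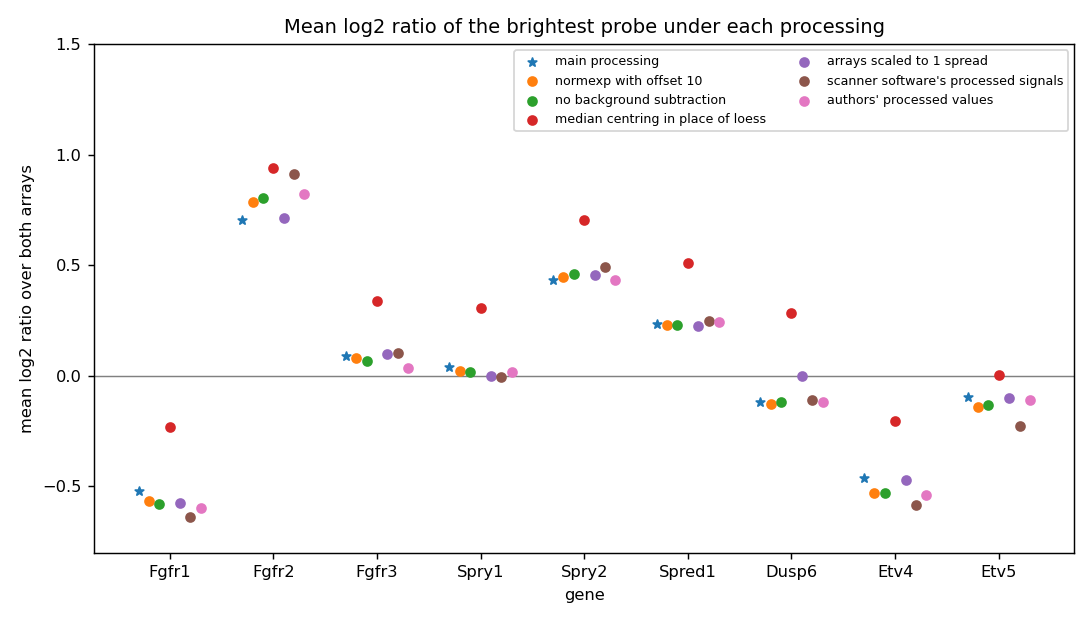
Mean log2 ratio over both arrays of the brightest probe of the 9 tested genes (horizontal axis) under the main processing (star) and 6 alternatives (circles). Fgfr2, Spry2 and Spred1 stay above 0 and Fgfr1 and Etv4 below it under all 7, while Spry1, Dusp6 and Etv5 cross it under at least 1.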

How the data were processed

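Two-color Agilent whole mouse arrays were scanned by the authors, whose software (Feature Extraction 10.5.1.1) deposited spot intensity and local background intensity per dye, processed signals, and a log10 ratio of Cy5 over Cy3. The authors also deposited a table that the values show to be log2 ratios, with a slope of 3.12 and 3.14 on the log10 ratios and medians of -0.0099 and -0.0034. Its steps are not given in the sources used here, beyond limma in the submitters' processing notes.

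From the deposited intensity, background was corrected by normexp with an offset of 50 and loess was fitted within each array in limma 3.58.1 (R 4.3.3), with 1639 control spots weighted out. Outlier spots (126 and 130 of 43379 gene spots) were dropped and replicate spots averaged by probe. Probes well above background on both arrays in Cy5 or in Cy3 were tested (22731 of 41174). The mean over 2 arrays was tested against 0 with lmFit and eBayes, two-sided, with Benjamini-Hochberg adjustment, on 1 residual and 2.77 prior degrees of freedom. Levels were taken after loess and Aquantile. In each RNA 53.9% to 56.2% of probes were well above background, and no gene spot was saturated. Precision is limited by the number of arrays.

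The members and lists were chosen with earlier results of these data known. The text names all members, Sox9, pathway genes past 2-fold on both arrays or past the adjusted p, the 2 highest and 2 lowest of each pathway list by mean log2 ratio, and markers. Fgf4 and Dusp5 were not matched by name, and some items are not reported here. The code was tested on simulated data. Figures were drawn with matplotlib 3.10.9.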

Additional observations from a re-analysis of the deposited data

Results flagged for a closer look

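Of the 9 tested genes, 2 read opposite ways on the arrays, a difference that was not tested because each array is 1 measurement. Dusp6 gave 0.28 on the genotype array and -0.52 on the treatment array, and Spry1 gave -0.10 and 0.18. Among all tested probes 32.9% read opposite ways.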

How the results depend on the processing

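The number of probes past an adjusted p of 0.05, 2 in limma, was 0 with an offset of 10, without background subtraction, with arrays scaled to 1 spread and with the scanner software's signals (3480 to 4329 at an unadjusted p under 0.05), 522 with median centring and 68 with the authors' processed values. The methods' t-test on the same values called 1925 probes at its own threshold and 0 after Benjamini-Hochberg. Probes past 2-fold on each array numbered 95, against 148 without background subtraction, 600 with the scanner software's signals, 147 with the authors' values, and 298 to 382 on 1 array alone. Members lower on both arrays numbered 3, against 1 with median centring, and 3 relative to the median there. The median of the members, 0.039, was 0.020 with an offset of 10, 0.017 without background subtraction, 0.30 with median centring, 0.0013 with scaling, -0.0071 with the scanner software's signals, 0.016 with the authors' values, 0.051 without a filter, and 0.086 to 0.096 on 1 array alone. Spry1 turned to -0.0029 with scaling, -0.0071 with the software's signals and -0.10 on the genotype array alone (0.18 on the treatment array alone). Dusp6 turned to 0.28 with median centring, 0.0013 with scaling and 0.28 on the genotype array alone (-0.52 on the treatment array alone), and Etv5 to 0.0052 with median centring. Between other cultures of the same kind the spread is unknown, and the cause of these shifts was not tested. Probes whose Sox9-expressing levels did not overlap the deleted ones numbered 11784, and 5573 without scaling between arrays.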
